A study of Homo sapiens with 8 samples.

Results

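The genes described here encode 10 AP-1 and immediate early factors: FOS, FOSB, FOSL1, FOSL2, JUN, JUNB, JUND, ATF3, EGR1 and IER2. They were chosen by name, as all probe sets whose only gene symbol is one of these. This gave 24 probe sets of the 41097 that name 1 gene, and 10 genes of 19775. FOS, FOSB, FOSL1, IER2 and JUNB had 1 probe set each, EGR1 and ATF3 had 3, JUN and JUND had 4 and FOSL2 had 5. A gene was represented by its brightest probe set. All 10 genes passed the filter on dim signal, a mean log2 signal of at least 6.01 over the arrays, and so did 22 of the 24 probe sets.

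Side population (SP) cells pump Hoechst dye out, and main population (MP) cells keep it. Both were sorted from 4 lung cancer cell lines. A549 and H460 carry mutated K-Ras, and H1975 and H1650 carry mutated EGFR. There were 8 arrays, for SP and for MP of each line, and lines serve as replicates. All cells had been held in dye at 37°C and sorted as viable before RNA was taken. Cells that were not sorted were not analysed here.

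FOS and JUN proteins join in pairs through a leucine zipper, and the pair, called AP-1, binds DNA at short sites near its target genes. Growth factor receptors and Ras act on these genes through MAP kinases, and phosphorylated factors already on the promoter start transcription without new protein synthesis. The transcripts are short lived in most cells. Handling and stress also induce them. In lung epithelium AP-1 is known for roles in growth, wound response and tumour invasion.

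The promoters of the 4 factors with the widest spread between the lines are printed first. Each sequence is the 120 bases before the annotated start of the gene, in RefSeq GRCh38.p14. Capitals mark 2 kinds of motif. One is the CArG box, which serum response factor binds. The other is TGACG, the core of the cyclic AMP response element (CRE), read as CGTCA where it lies on the opposite strand.
JUNB (chr19:12791366-12791485, plus strand): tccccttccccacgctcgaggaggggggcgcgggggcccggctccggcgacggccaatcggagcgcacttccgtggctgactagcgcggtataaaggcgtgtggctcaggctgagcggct
FOSB (chr19:45467876-45467995, plus strand): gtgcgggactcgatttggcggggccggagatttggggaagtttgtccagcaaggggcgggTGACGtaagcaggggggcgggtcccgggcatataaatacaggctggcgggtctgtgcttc
EGR1 (chr5:138465359-138465478, plus strand): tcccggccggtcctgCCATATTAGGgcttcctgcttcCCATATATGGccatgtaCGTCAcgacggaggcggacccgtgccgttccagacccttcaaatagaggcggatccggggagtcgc
FOS (chr14:75278708-75278827, plus strand): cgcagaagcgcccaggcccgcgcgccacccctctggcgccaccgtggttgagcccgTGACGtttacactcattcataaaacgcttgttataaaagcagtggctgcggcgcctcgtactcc

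The TGACG core lay 60 to 56 bases before the start in FOSB, 66 to 62 bases in EGR1 and 64 to 60 bases in FOS. FOSL2 also had it 66 to 62 bases before its start. EGR1 had CArG boxes at 105 to 96 and at 83 to 74 bases before the start. Motifs were searched on both strands over 250 bases before the start, in 10 windows of 9 factors, since ATF3 has 2 start sites in the table and FOSL1 was not matched. The core was in the windows of 8 of the 9 factors, all but ATF3, and in 21.2% of all 34788 windows of this length. The JUNB core lay 137 to 133 bases before the start, beyond the bases printed. The CArG box was in 1 of the 9, EGR1, and in 1.17% of all windows. The full CRE, TGACGTCA, which holds the core on both strands, was in 1 of the 9, JUND, and in 1.64% of all windows. The AP-1 site, TGACTCA or TGAGTCA, was in none of the 9 and in 4.21% of all windows. Bases outside these windows were not searched, so a motif missing here may still lie near the gene. A match of letters is a description of the sequence.

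KRT8 and KRT18, keratins of epithelial cells, had log2 signals of 12.88 to 14.33 on all arrays. CDH1, the epithelial cadherin, was at 1.61 in SP and 0.63 in MP cells of H460, and NKX2-1, a lung lineage factor, was at 5.76 or lower on every array. Of 7 lung epithelial markers measured, NKX2-1, SFTPD and FOXA2 were below the filter. SFTPB and SFTPC, surfactant genes, were at 7.34 to 7.97 and 6.93 to 8.30 over the arrays, and FOXA1 reached 9.19 in H460. Of 7 leukocyte markers measured 5 were below the filter, among them PTPRC at 4.72 or lower. CD14 was at 7.39 to 9.42, and CSF1R was at 8.50 in SP and 8.57 in MP cells of H1650. The log2 signal of 3′ minus 5′ probe sets, a sign of RNA quality, was 0.23 to 0.65 for ACTB and -0.18 to -0.03 for GAPDH. ABCG2, a transporter that pumps Hoechst dye, was at 10.06 in SP and 8.89 in MP cells of H1975, 12.22 in SP and 11.14 in MP cells of A549, and 12.71 in SP and 12.35 in MP cells of H460. In H1650 it was lower in SP, at 10.75 in SP and 11.45 in MP cells. All 10 markers of cycling cells had a lower signal in SP than in MP cells of H1650. In SP cells 10 of 10 were higher in H1975 and in H460, and 9 of 10 in A549. By qRT-PCR the paper reports the cycling markers TOP2A and CDK1 as higher in SP of every line, H1650 included. It used ABCG2 there as a positive control for SP. The labels of H1650 were kept, although the arrays leave them in doubt. If they were exchanged, each SP over MP ratio given for H1650 would change sign, and the comparison of H1650 with the other lines would change too. Results of SP against MP are therefore given with and without H1650.

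The lines differed more in these factors than SP and MP did. H1975 had the highest mean of SP and MP for 9 of the 10, and H460 the lowest for 7. No factor passed the test of SP against MP. By the brightest probe set of each factor, the largest difference in any line was JUNB in A549, which was lower in SP.

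**Figure D1:**
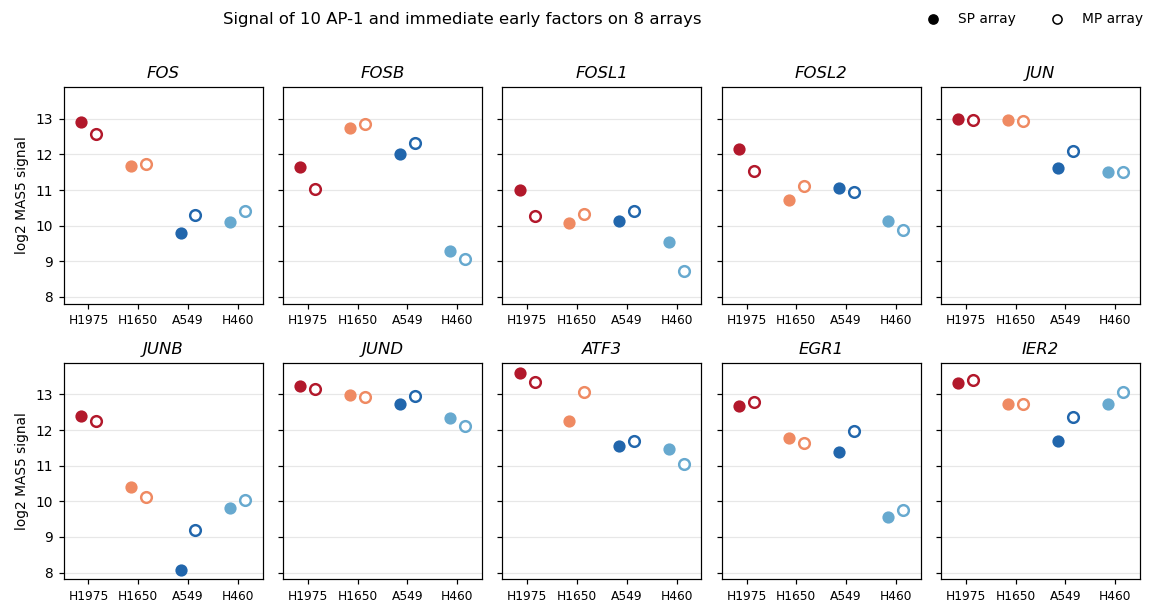
The log2 MAS5 signal (y axis) of each factor on the SP array (filled) and the MP array (open) of each line (x axis), 1 point per array. Points of a line lie near each other, H1975 has the highest mean in all panels but FOSB, and JUNB in A549 has the widest gap between SP and MP, at 8.08 in SP and 9.19 in MP.

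JUNB, a JUN protein that binds FOS partners and can hold back JUN, differed most between lines. It had log2 signals of 12.40, 10.39, 8.08 and 9.82 on the SP arrays of H1975, H1650, A549 and H460, against 12.26, 10.12, 9.19 and 10.05 on the MP arrays of those lines. Both arrays of H1975 were above all others, and both arrays of A549 were below all others. The line means spanned 3.69 on the log2 scale, a 12.9-fold difference (limma F test, adjusted p = 0.000164). H1975 exceeded H1650 by 2.07 ± 0.31 (SE, adjusted p = 0.00122). H1650 and H460, next to each other in the order, differed by 0.32 ± 0.31 (SE, adjusted p = 0.413). In A549 the linear signal was 271 in SP and 584 in MP, a log2 ratio of -1.11. The ratio was 0.15 in H1975, 0.27 in H1650 and -0.23 in H460.

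FOSB, a FOS protein with a stable splice form known from brain, was the exception to the order. On the SP arrays of H1975, H1650, A549 and H460 its log2 signals were 11.65, 12.73, 12.02 and 9.30, and on the MP arrays they were 11.04, 12.85, 12.32 and 9.08. H1650 was highest and H460 lowest on both kinds of array. The span was 3.61, or 12.2-fold (limma F test, adjusted p = 2.40e-05). All 6 pairs of lines passed the test. The closest were H1650 and A549, which differed by 0.62 ± 0.21 (SE, adjusted p = 0.0427). H1975 lay below H1650 by 1.44 ± 0.21 and below A549 by 0.82 ± 0.21 (SE).

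EGR1 encodes a zinc finger factor that growth factors induce through serum response factor. It had 12.68, 11.77, 11.40 and 9.55 on the SP arrays of H1975, H1650, A549 and H460, against 12.80, 11.65, 11.97 and 9.74 on the MP arrays. H460 was below all others and H1975 above all others. The span was 3.09, or 8.52-fold (limma F test, adjusted p = 2.18e-05). H1650 and A549 differed by 0.03 ± 0.17 (SE, adjusted p = 0.915). The other pairs of lines passed the test.

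FOS, the founding partner of JUN in AP-1, had 12.90, 11.69, 9.81 and 10.10 on the SP arrays of H1975, H1650, A549 and H460, against 12.57, 11.74, 10.31 and 10.41 on the MP arrays. Both EGFR mutant lines were above both K-Ras mutant lines, with no overlap. The share of all genes with such a split was not counted. The span was 2.67, or 6.38-fold (limma F test, adjusted p = 4.81e-05). A549 was below H460 by 0.20 ± 0.20 (SE), which did not pass the test (adjusted p = 0.462).

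ATF3 is a stress-induced factor that can pair with JUN proteins. On the SP arrays it was at 13.61, 12.27, 11.56 and 11.47 in H1975, H1650, A549 and H460, and on the MP arrays at 13.35, 13.07, 11.71 and 11.05. The EGFR mutant lines were again above the K-Ras mutant lines without overlap. The span was 2.22, or 4.66-fold (limma F test, adjusted p = 0.000587). A549 and H460 did not differ by the test (0.37 ± 0.26, SE, adjusted p = 0.295).

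JUN, the partner common to all FOS proteins, had 12.99, 12.95, 11.62 and 11.50 on the SP arrays of H1975, H1650, A549 and H460, against 12.97, 12.95, 12.09 and 11.51 on the MP arrays. The lines formed an upper pair and a lower pair by EGFR and K-Ras mutation. H1975 and H1650 differed by 0.02 ± 0.14 (SE, adjusted p = 0.902), and A549 and H460 by 0.34 ± 0.14 (SE, adjusted p = 0.0914). The span was 1.47, or 2.76-fold (limma F test, adjusted p = 0.000113). FOS, JUN, ATF3 and JUNB thus shared this split of the lines, in JUNB by a narrow margin, with 10.12 in MP cells of H1650 and 10.05 in MP cells of H460. With 2 lines of each mutation the split was not tested. The share of all genes with such a split was not counted, so it is not shown to be particular to these factors.

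IER2, a small nuclear immediate early protein, had 13.32, 12.74, 11.68 and 12.74 on the SP arrays of H1975, H1650, A549 and H460, against 13.41, 12.73, 12.36 and 13.08 on the MP arrays. A549 was lowest, as it was for FOS and JUNB. The span was 1.35 (limma F test, adjusted p = 0.000995). H1650 was below H460 by 0.18 ± 0.16 (SE, adjusted p = 0.392).

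FOSL2, also called FRA-2, is a FOS protein without the strong activation domain of FOS. It had 12.14, 10.71, 11.06 and 10.12 on the SP arrays of H1975, H1650, A549 and H460, against 11.55, 11.12, 10.94 and 9.87 on the MP arrays. The span was 1.85 (limma F test, adjusted p = 0.00101), and only H1650 and A549 did not differ (-0.09 ± 0.22, SE, adjusted p = 0.771).

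FOSL1, also called FRA-1, is known for roles in invasion and as a target of MAP kinase signalling. It had 10.996, 10.07, 10.14 and 9.54 on the SP arrays of H1975, H1650, A549 and H460, against 10.26, 10.32, 10.41 and 8.74 on the MP arrays. Its span of 1.49 had the highest adjusted p of the 10 (limma F test, 0.0109). H1975, A549 and H1650 did not differ from each other by the test (adjusted p = 0.268 to 0.850), and all 3 were above H460. Without the MP array of H460 the span was 1.13 and no longer passed (adjusted p = 0.107).

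JUND, the JUN protein that many resting cells keep at a steady level, varied least by the brightest probe set. It had 13.22, 12.98, 12.73 and 12.35 on the SP arrays of H1975, H1650, A549 and H460, against 13.16, 12.94, 12.96 and 12.12 on the MP arrays. The span was 0.96, or 1.94-fold (limma F test, adjusted p = 0.00114). H1650 did not differ from A549 (adjusted p = 0.459) or H1975 from H1650 (adjusted p = 0.151).

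All 10 factors passed the F test of levels between lines, where 76.3% of the 12300 genes tested passed. Sizes set the factors apart from the bulk more than calls did. Their median span was 2.04 on the log2 scale, against 1.13 over all genes tested, and 5 of the 10 spanned over 2, against 23.0% of all genes. H1975 was the highest line for 9 of the 10 and for 29.4% of all genes. H460 was the lowest line for 7 of the 10 and for 28.0% of all genes. The F test has 2 arrays per line, from SP and MP cells of 1 line, so its p-values measure array noise and how far the SP difference varies between lines. They say nothing of the spread between cultures of a line.

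By pairs of lines, 47 of 60 contrasts of the 10 factors passed. H1975 against H460 passed for 10 of 10, each higher in H1975, where 52.8% of all genes passed. H1975 against A549 passed for 9, of which FOSB alone was lower in H1975, where 49.9% of all genes passed. H1975 against H1650 passed for 7, again with FOSB lower in H1975, where 47.9% passed. H1650 against H460 passed for 8, all higher in H1650 (53.4% of all genes), and H1650 against A549 for 6, all higher in H1650 (46.4%). A549 against H460 passed for 7, of which 5 were higher in A549 and 2, JUNB and IER2, lower (38.3%).

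Fibroblast genes were also uneven between the lines. Their summed linear signal over 7 genes was 12995 in SP and 11333 in MP cells of H1975, against 1466 to 4469 on the other 6 arrays. COL1A1, a collagen chain, was at 12.94 in SP cells of H1975 on the log2 scale, against 9.42, 9.61 and 9.67 in SP cells of H1650, A549 and H460, and 4 of the 6 listed genes above the filter were highest in H1975. COL3A1 and LUM, other matrix genes, were instead highest in H460, at line means of 10.53 and 10.40. In H1975 they were at 4.32 and 6.01, the lowest line for COL3A1. LUM was at 0.11 in SP and 0.28 in MP cells of H1650. The part of these genes in the line levels was not tested.

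Over the 8 arrays, FOS, JUN and ATF3 had similar profiles (Pearson r = 0.91 for FOS with JUN, 0.94 for FOS with ATF3 and 0.91 for JUN with ATF3). JUNB was close to IER2 (r = 0.93), EGR1 to JUND (r = 0.97) and FOSL1 to FOSL2 (r = 0.92). FOSB had r = -0.08 with JUNB and -0.33 with IER2. These values describe 8 arrays from 4 lines, and the arrays of a line share their source. The 3 genes with the nearest profile were AP1B1, PTPRE and SIPA1L1 for FOS (r = 0.990 to 0.993), and DPYSL4, CRIP2 and CDH1 for FOSB (0.985 to 0.993). For FOSL1 they were DDR2, LRRK1 and LENG1 (0.950 to 0.979), and for FOSL2 they were MAPK8, IFT56 and LENG1 (0.976 to 0.981). For JUN they were LOC100505715, LYPD3 and DPP4 (0.992 to 0.994), for JUNB CPLX1, ITGB3 and LAMP2 (0.987 to 0.990), and for JUND SNPH, MBOAT7 and BHLHE40 (0.985 to 0.986). For ATF3 they were LIPG, ZSCAN5A and DRC9 (0.988 to 0.994), for EGR1 TASP1, HLA-DMA and OPTN (0.993 to 0.995), and for IER2 MRS2, NUDT16L2P and STX10 (0.982 to 0.995). MAPK8 encodes the kinase JNK1, which phosphorylates JUN.

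SP was then compared with MP within the lines. Of the 10 factors none passed (limma, adjusted p of 0.945 or higher), where 0.0% of all genes passed, and 372 genes and 1 factor had an unadjusted p under 0.05. That factor was IER2, whose mean log2 ratio of SP over MP was -0.27 ± 0.30 (SD, n = 4 lines), with a limma 95% interval of -0.54 to -0.01. Without A549 it was -0.14 (-0.35 to 0.07, limma, unadjusted p = 0.148). Its ratio was -0.09, 0.00, -0.67 and -0.34 in H1975, H1650, A549 and H460. The mean ratio was positive for 4 factors, with the highest at 0.25 ± 0.59 for FOSL1 (SD, n = 4 lines), and negative for 6. FOSL1 was at 0.073 without H460 and 0.094 without H1975. With the mean of its probe sets FOSL2 was higher, at 0.29, against 0.14 by the brightest. The limma 95% interval of the mean ratio was widest for JUNB, at -0.74 to 0.28, followed by FOSL1, at -0.24 to 0.75. By the brightest probe sets it was narrowest for JUND, at -0.17 to 0.23. With the mean of its probe sets the interval of JUND was -0.46 to 0.46.

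**Figure D2:**
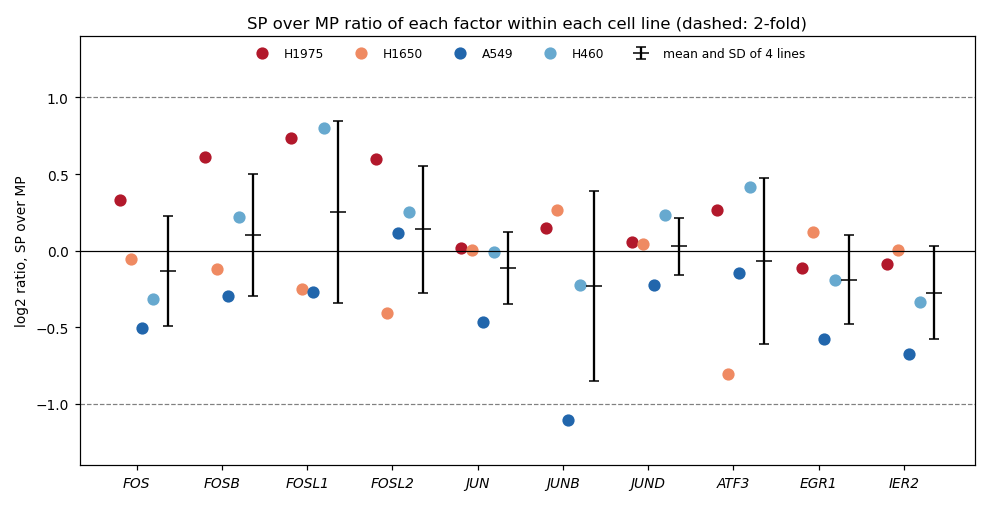
The log2 ratio of SP over MP (y axis) of each factor (x axis) in each line (coloured points), with the mean and SD of the 4 lines in black and dashed lines at 2-fold. The points lie on both sides of 0 for all 10 factors, and JUNB in A549, at -1.11, is the only point past 2-fold.

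None of the 10 kept 1 direction in all 4 lines, as 1199 of the 12300 genes did. Without H1650, FOSL2 was higher in SP in each line, and EGR1 and IER2 were lower in each. How many of all genes did so without H1650 was not counted. Of the 40 ratios, 19 were above 0 and 21 below. The lines were not alike. In A549 9 of 10 factors had the lower signal in SP, while 6212 of the 12300 genes had the higher signal there. The median log2 ratio of the factors was -0.38, against 0.00 over all genes. FOSL2 was the exception there, at 0.11. In H1975 8 of 10 were higher in SP, against 5575 of the 12300 genes. The median of the factors was 0.21, against -0.04 over all genes, and the highest was FOSL1 at 0.74. In H460 and H1650 5 of 10 were higher in SP, against 5533 and 6003 of the 12300 genes. The medians of the factors were 0.10 and -0.02.

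FOS, JUN, JUNB, EGR1 and IER2 were lower in SP in both K-Ras mutant lines, 5 of 10 factors, as were 32.2% of all genes. FOS had -0.50 in A549 and -0.31 in H460. EGR1 had -0.58 in A549 and -0.19 in H460. FOSL1 differed from these, with -0.27 in A549 and 0.80 in H460. FOSL1 and FOSB had their highest ratios in different lines, H460 at 0.80 for FOSL1 and H1975 at 0.61 for FOSB.

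At the size of 2-fold, the count was 1 of 10 lower in A549 SP cells, JUNB, where 1.41% of all genes were that much lower. No factor was 2-fold higher in SP of A549 (2.87% of all genes), or 2-fold higher or lower in SP of H460 (1.98% and 1.42%), of H1650 (1.02% and 2.02%) or of H1975 (1.78% and 2.36%). These counts use the brightest probe sets. By dimmer ones FOSL2 in H1975 was at a log2 ratio of 1.17, above the filter, and 1.23, below it. The dimmest JUND probe set, also below the filter, was at 1.57 in H1975 and -1.11 in H1650. The median absolute ratio over factors and lines was 0.25, against 0.19 over all genes. By the brightest probe sets, the span between line means exceeded the largest SP over MP ratio of the same factor in every case, by 1.86 times for FOSL1 up to 5.89 times for FOSB.

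**Figure D3:**
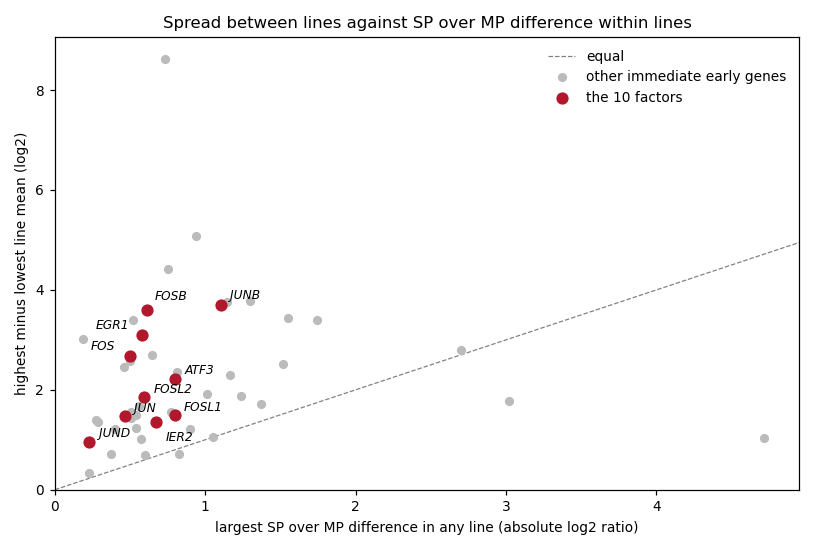
Highest minus lowest line mean (y axis, log2) against the largest absolute SP over MP log2 ratio in any line (x axis), for the 10 factors (red) and 37 other immediate early genes (grey), with a dashed line where both are equal. All 10 factors lie above the line, as do most of the other immediate early genes. GEM and IER3 are near it, and PHLDA1, TIPARP and NR4A3 are below it, NR4A3 the farthest.

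Without H1650 none of the 10 factors passed (limma, lowest adjusted p = 0.257), where 0.203% of all genes did. An unadjusted limma p under 0.05 was seen for 3 factors and for 1663 of the 12300 genes tested. IER2 was at -0.37 (limma 95% interval -0.64 to -0.09), EGR1 at -0.29 (-0.56 to -0.03) and FOSL2 at 0.32 (0.04 to 0.59). FOSL2 had ratios of 0.60 in H1975, 0.11 in A549 and 0.25 in H460, and of -0.40 in H1650. It was the only factor of the 10 with this pattern, which 13.5% of all genes had.

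The SP difference in H1650 was set against that of the other 3 lines by an interaction term. None of the 10 passed, where 0.333% of all genes did. ATF3 had a log2 ratio of -0.80 in H1650 and of 0.26, -0.14 and 0.41 in H1975, A549 and H460, a difference of -0.98 ± 0.23 (SE, limma adjusted p = 0.161). For FOSL2 the difference was -0.72 ± 0.23 (SE, limma adjusted p = 0.290). H1650 has 1 pair of arrays, so its own spread is taken to equal that of the other lines. The cycling markers, with median log2 ratios of -0.61 in H1650 and 0.80, 0.49 and 0.23 in H1975, A549 and H460, moved in the same directions as FOSL2. None of these 10 was near 0 on any array, the lowest being PLK1 at 6.64, and their summed linear signal was 25171 in SP and 35307 in MP cells of H1650, against 31586 to 44606 in SP and 20941 to 36165 in MP cells of the other lines. Their part in the ratios of the factors was not tested.

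Probe sets of 1 gene were then compared. For EGR1 the 3 probe sets correlated at r = 0.988 to 0.997 over the 8 arrays, for JUN the 4 at 0.923 to 0.991 and for FOSL2 the 5 at 0.895 to 0.982. JUND ranged over 0.299 to 0.982, and its dimmest probe set was below the filter. In line levels 20 of the 24 probe sets were highest in H1975 and 19 were lowest in H460. All 22 above the filter passed the F test but the dimmest of ATF3 (limma, adjusted p = 0.595). In JUN the brightest probe set had H1975 above H1650 by 0.02, while the 3 dimmer ones put H1650 first.

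FOSL2 had the same signs in 4 of its 5 probe sets, with SP higher in H1975, A549 and H460 and lower in H1650. Its dimmest, below the filter, was at 0.09 in H1650. ATF3 was lower in SP of H1650 by all 3 probe sets, at -0.80, -0.93 and -0.999. EGR1 was lower in SP of A549 by all 3, at -0.58, -0.38 and -0.37. In H460 its 3 probe sets disagreed in sign, at -0.19, 0.43 and 0.03. JUN was -0.72 in H1650 by 1 probe set and 0.00, -0.19 and 0.03 by the others.

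**Figure D4:**
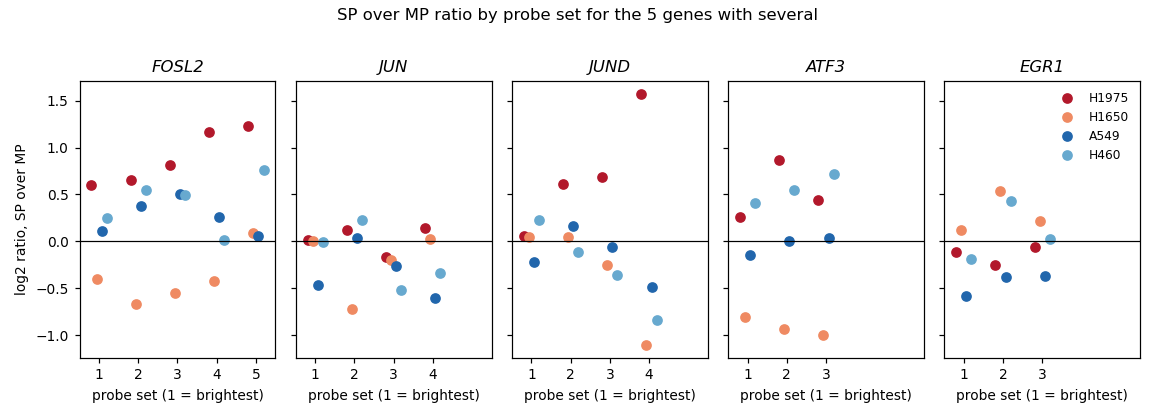
The log2 ratio of SP over MP (y axis) in each line (colours) by probe set (x axis, 1 the brightest) for the 5 factors with several probe sets. ATF3 in H1650 lies between -0.80 and -0.999 by all 3, and the dimmest JUND probe set spreads from -1.11 in H1650 to 1.57 in H1975.

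Other genes of the pathway were read from lists. Of 15 other AP-1 family factors 10 were above the filter, and all 10 passed the F test of line levels, while none passed SP against MP with or without H1650. JDP2, which pairs with JUN and represses, was highest in H1650 at a line mean of 11.23 and lowest in H1975 at 8.63 (limma F test, adjusted p = 5.52e-05). It had the higher signal in SP in all 4 lines, with ratios of 0.63, 0.10, 0.40 and 0.23 in H1975, H1650, A549 and H460, and did not pass (limma, adjusted p = 0.945, and 0.271 without H1650). ATF2, a partner of JUN, was highest in H1975 at 11.85. MAFG and ATF7 were highest in H460 and A549, at 11.06 and 10.57. DDIT3, a stress factor known as CHOP, had log2 ratios of 1.19, 0.54 and 0.53 in H1975, A549 and H460 and -1.10 in H1650. ATF4, which induces DDIT3 and ATF3, had 0.39, 0.15 and 0.21 in those lines and -0.33 in H1650. BATF2 had -0.16, -0.65 and -0.56 in those lines and 0.15 in H1650. None of the 3 passed the test without H1650 (limma, adjusted p = 0.155 for DDIT3, 0.268 for ATF4 and 0.482 for BATF2).

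Of 40 other immediate early genes 37 were above the filter. In line levels 32 passed, or 86.5%, 24 were highest in H1975 and 18 were lowest in H460, and the median span was 1.78. KLF6, a zinc finger factor, spanned 3.01 and IL6, a cytokine with AP-1 sites, spanned 4.43, both highest in H1975. PTGS2, the inducible cyclooxygenase, ran the other way, with line means of 4.87 in H1975, 5.47 in H1650, 13.50 in A549 and 9.18 in H460. CXCL3, a chemokine, was also highest in A549, at 10.58.

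Of the same 37, 27, 18 and 26 were higher in SP in H1975, A549 and H460, and 7 in H1650. None passed SP against MP in 4 lines. PHLDA1, which growth factor signals induce, was the only one that passed without H1650. It was at 13.42 in SP and 12.70 in MP cells of H1975, 13.02 in SP and 12.41 in MP cells of A549, and 12.77 in SP and 11.94 in MP cells of H460, a mean log2 ratio of 0.72 (limma, adjusted p = 0.0312). In H1650 it was at 12.44 in SP and 12.78 in MP cells. SGK1, TIPARP and GEM had mean ratios of 0.53, 1.97 and 1.78 without H1650 and did not pass (limma, adjusted p = 0.0640 to 0.0774). PHLDA1, TIPARP and GEM were among genes that the study picked from these arrays, so their place in the list is not independent evidence. The same holds for CDK1 and TOP2A in the list of cycling markers.

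**Figure D5:**
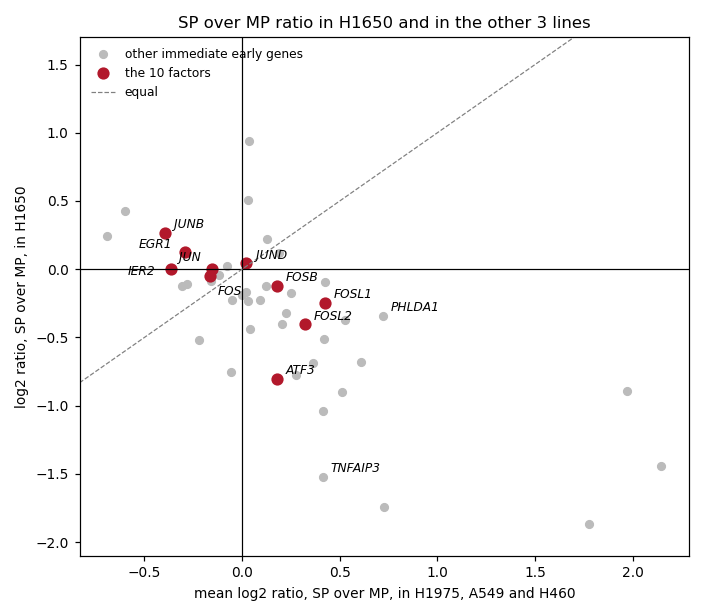
SP over MP log2 ratios in H1650 (y axis) against its mean over H1975, A549 and H460 (x axis), for the 10 factors (red) and 37 other immediate early genes (grey), with a dashed line where both are equal. ATF3, FOSL2, FOSL1 and FOSB lie in the lower right, higher in SP on average in the 3 lines and lower in SP of H1650, as do PHLDA1 and TNFAIP3.

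In the interaction with H1650, TNFAIP3, an inhibitor of NF-κB signalling, passed among the immediate early genes (-1.93, limma adjusted p = 0.0454). It was at 8.86 in SP and 10.38 in MP cells of H1650, and higher in SP in the other 3 lines. Among AP-1 targets, CXCL8, a chemokine, passed (-1.49, limma adjusted p = 0.0454), at 8.18 in SP and 9.80 in MP cells of H1650. Among the cycling markers, CDK1 passed (-1.71, limma adjusted p = 0.0454), at 11.10 in SP and 12.34 in MP cells of H1650. These calls are among 41 genes called in all, and that count was 0 after quantile normalization or when linear signals under 32 were set to 32.

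Of 24 kinases and factors that act on AP-1, 21 were above the filter. In line levels 17 passed, with a median span of 0.96, and none passed SP against MP with or without H1650. MAP2K2, which phosphorylates ERK, was highest in H1975 at 12.80 and lowest in H1650 at 10.82. RPS6KA3, the kinase RSK2, was also lowest in H1650, at 10.98, while MRTFB, a partner of serum response factor, was highest there at 12.10. MRTFA, its relative, was lowest in H460 at 7.34. FBXW7, which marks JUN for breakdown, had ratios of 0.48, 0.53 and 0.31 in H1975, A549 and H460 and -0.32 in H1650. MAPK3, the kinase ERK1, had -0.35, -0.40 and -0.93 in those lines and 0.39 in H1650. MAPK9, the kinase JNK2, had its lowest ratio in A549, at -0.39.

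Of 27 AP-1 target genes 22 were above the filter, 19 passed in line levels, and the median span was 2.50. SPP1, or osteopontin, had line means of 13.19 in A549 and 14.15 in H460, against 5.33 in H1650 and 3.62 in H1975. F3, or tissue factor, ran the other way, at 12.86 in H1975 and 11.50 in H1650, against 8.38 in A549 and 8.79 in H460. IVL, or involucrin, was at 12.19 in H1650 and 5.21 to 5.30 in the others. KRT7, a keratin, was lowest in H460 at 9.21. HMOX1, or heme oxygenase, had the widest SP difference of the list, at 2.26, 0.39 and 2.27 in H1975, A549 and H460 and -0.90 in H1650, and did not pass without H1650 (limma, adjusted p = 0.122). TIMP1 and ITGA2 were lower in SP in those 3 lines, with mean ratios of -0.23 and -0.38, and did not pass either.

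Heat shock and dissociation genes are known to respond to handling. Of 16 listed 13 were above the filter, and none passed SP against MP with or without H1650. DDIT4, BAG3, DNAJB4 and HSPH1 were higher in SP in H1975, A549 and H460 and lower in SP in H1650, with mean ratios of 0.74, 0.39, 0.50 and 0.35 without H1650. The median log2 ratio of the 13 was 0.30 in H1975, 0.00 in H1650, -0.14 in A549 and 0.14 in H460, where the 10 factors had 0.21, -0.02, -0.38 and 0.10. Both medians were below 0 in A549. The part of these genes in the levels of the factors was not tested. By the F test SERPINH1, a collagen chaperone, and HSPB1 had the smallest p between lines. SERPINH1 was highest in H1975 at 13.18 and lowest in H460 at 9.64. HSPB1 was highest in H1650 at 13.70 and lowest in H460 at 11.83.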

How the data were processed

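The authors deposited log2 signals, made with MAS5 and, by the submitters' processing notes, GCOS 1.4. The linear signal of each array has a 2% trimmed mean of 500.1, and array medians are 5.92 to 6.29 on the log2 scale. The values are not centred by gene. No detection calls were used, so dim probe sets have only a nominal level, and the number of arrays limits precision. Names came from the platform annotation, in which 41097 probe sets have 1 symbol, 1801 several and 11777 none.

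The fits used limma 3.58.1 in R 4.3.3 (lmFit, eBayes with trend) on the brightest probe set of each gene, for the 12300 genes whose mean log2 signal reached 6.01, the median over probe sets. SP against MP had cell line as a block, which pairs the arrays by the study's design. The deviations of a line's SP and MP arrays correlated at 0.887 to 0.940. Levels between lines had population as a covariate. Benjamini-Hochberg adjusted p under 0.05 over all genes was the threshold. Fits were tested on simulated data.

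The members, lists and tests were chosen with earlier results of these data known. Named genes were all members, the 3 nearest gene profiles to each, and up to 4 genes of each list with the smallest p in the fit without H1650 and in the F test. Listed genes that passed the interaction, and some markers, were named after their values were seen. Listed genes without a probe set of their own were not analysed here. Promoters are from RefSeq GRCh38.p14. The alternatives were a floor of 32, a pseudocount of 16, quantile or median scaling, other filters, the mean of probe sets, every probe set, no trend, no block and leaving out each line or array.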

Additional observations from a re-analysis of the deposited data

Results flagged for a closer look

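The MP array of H460 had a FOSL1 log2 signal of 8.74, far below the other 3 MP arrays. The SP over MP log2 ratio of JUN was -0.47 in A549, far from the other 3 lines, which lay between -0.01 and 0.02. Of 30 groups of 4 values looked at in this way, 2 stood out, and chance gives about 1 in 20.

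By the brightest probe set of JUN and of JUNB both K-Ras mutant lines had a lower signal in SP and both EGFR mutant lines a higher signal in SP. The mean log2 ratio in the K-Ras mutant lines minus that in the EGFR mutant lines was -0.25 for JUN and -0.87 for JUNB. The difference was not tested. For JUN it rests on A549, at -0.47, since the ratio was -0.01 in H460, 0.00 in H1650 and 0.02 in H1975. The second brightest probe set of JUN went the other way, at 0.04 in A549 and 0.23 in H460, with -0.72 in H1650 and 0.12 in H1975. The third was below 0 in all 4 lines, and the dimmest had 0.14 in H1975, 0.03 in H1650, -0.60 in A549 and -0.34 in H460.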

How the results depend on the processing

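None of the 10 factors passed SP against MP or the H1650 interaction under any alternative run (limma, lowest adjusted p = 0.257 and 0.107), and all 10 passed the test of line levels under each, except FOSL1 without the MP array of H460. With lines left out, the count of genes called between SP and MP ranged over 0 to 25, with 25 without H1650, and with no replicate block it was 0 (1 gene at an unadjusted p under 0.05). With every probe set tested 16633 probe sets differed between lines. The 41 genes called in the H1650 interaction became 0 with a floor of 32, with quantile normalization, with no filter or with no trend, 74 with a pseudocount, 134 with the same median on each array, 65 with the filter at 7, 22 with the mean of probe sets, 67 with every probe set and 1 to 131 with lines left out (1 without A549 and 131 without H1975).

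The unadjusted p of IER2 between SP and MP was 0.148 without A549, 0.132 without H460, 0.116 with the same median on each array, 0.105 with no trend and 0.472 with no replicate block. Mean SP over MP ratios near 0 changed sign when lines were left out, over -0.066 to 0.24 for FOSB, -0.014 to 0.32 for FOSL2, -0.16 to 0.0035 for JUN, -0.40 to 0.062 for JUNB, -0.040 to 0.11 for JUND and -0.23 to 0.18 for ATF3. With the mean of probe sets JUND was at -0.00076 and ATF3 at 0.035. The H1650 difference ranged over -0.059 to 0.36 for FOS, -0.0015 to 0.24 for JUN and -0.10 to 0.13 for JUND. It was -0.070 for JUN and -0.42 for JUND with the mean of probe sets, and -0.077 for JUND with quantile normalization. The cause was not tested. Over 2-fold counts, a floor of 32 gave 85 genes lower in SP of H460, against 175, and 83 higher in SP of H1650, against 126.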
